A study of Rattus norvegicus with 23 samples.

Results

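Blood mononuclear cells of young male rats were compared according to the feeding of their mothers during lactation. The comparison used the 11 arrays whose titles name a male pup, out of 23 arrays in the series: 5 from sons of calorie-restricted dams (CR sons) and 6 from sons of control dams (control sons). The pups were Wistar rats killed at weaning, at an age of 21 days, while they had free access to food. Control dams ate standard chow freely. CR dams ate a diet restricted by 20% in calories from the first day after delivery until weaning. The dams numbered 11 in the control group and 5 in the CR group, with litters culled towards 10 pups, and pups are not tied to litters in the labels. The 5 CR sons therefore came from at most 5 dams, some of them possibly littermates, and p-values over pups may be too small. Each array carried the RNA of 1 son in the Cy5 channel and, in the Cy3 channel, one pool made from the RNA of all samples of the series, and the unit throughout is the log2 ratio of son to pool. The question was which transcripts of blood cells differ between sons of restricted and of freely fed dams.

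Peripheral blood mononuclear cells (PBMC) are the lymphocytes and monocytes that a density gradient separates from granulocytes and red cells. B cells carry the antigen receptor CD79 and present peptides on class II molecules, which are loaded with the help of the invariant chain Cd74 and transcribed under the coactivator Ciita. Natural killer (NK) cells read other cells through lectin-like receptors encoded side by side in the NK gene complex. Clathrin adaptors such as the GGA, AP and FCHo proteins pick cargo at the Golgi and at the plasma membrane, a route that lymphocytes use to internalise receptors.

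Between 20603 and 24076 probes per array were well above background in the sons' Cy5 channel, and the defining PBMC markers were among them: the B cell gene Cd79b, the T cell gene Cd3g, the NK gene Prf1 and the monocyte gene Lyz2 were above background on all 11 arrays. The arrays were not alike in 3 ways that touch the results. First, all 5 arrays hybridised at position 4 of a slide were control sons, and no CR son was there. The median Cy3 signal was 46.2 to 55.6 at position 4 and 53.7 to 61.2 at positions 1 to 3. Position and maternal diet cannot be told apart for these 5 arrays. With position as a term in the fit, the control sons are compared through control son 1 alone, and limma called 6 features, all of them highest in that array among the sons: Muc3, Vps50, Bcl2l15, Krt19, Enpep and Dmbt1, named here after their values were seen. Second, CR sons 1 and 3 lay apart from the other sons on the second principal component, at -32.3 and -20.4, with the other 9 between -0.069 and 8.69. Last, control sons 1, 2 and 5 held the highest levels of transcripts of gut epithelium. Fits without these arrays were run for 88 genes and 38 lists. Many of their values that moved by over 1.5 times are given both ways. Other genes, such as Klre1, Syk, Btk, Ciita, RT1-Ba and RT1-Bb, were not refitted in this way. The precision was limited by the number of arrays: the median standard error of a difference was 0.083 on the log2 scale.

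No feature changed between the groups at an adjusted p under 0.05 in limma with Benjamini-Hochberg adjustment (0 of 19679 features, 0%), and the lowest adjusted value was 0.216. Before adjustment, limma counted 812 features with lower levels in CR sons at p under 0.05 (4.13%) and 595 with higher levels (3.02%). The 5 CR sons lay wholly below the 6 control sons for 50 features (0.254%) and wholly above for 26 (0.132%). The median difference over all features was -0.0072. With each array centred on its median in place of loess it was -0.199, and the counts at an unadjusted p under 0.05 became 6201 lower and 156 higher. Directions given below are relative to the loess baseline. Values that follow are therefore measured differences with their errors, none of them past the adjusted threshold. Among removals of 1 array, that of CR son 2 alone gave calls: without it limma called 4 genes, all lower in CR sons, with -0.69 for Hip1r and -0.96 for Fgd2 (both at an adjusted p of 0.00715), and -0.50 for Grwd1 and -1.08 for Gga2 (both at 0.0211). The count at an unadjusted p under 0.05 was 2126 without CR son 2 and 770 without CR son 1.

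The common pool gave a yardstick for these counts, because it was the same RNA on every array. Analysed alone, the Cy3 channel should show no difference between sons, and limma called 0 features in it. At an unadjusted p under 0.05 it nevertheless counted 1645 features between the CR and control arrays (8.36%), more than the 1407 counted for the ratio. Of the 1407, 296 also had an unadjusted p under 0.05 in Cy3, and 274 of these lay in the opposite direction there. The differences in the pool were smaller, with a median size of 0.038 against 0.065 for the ratio and 0.078 for Cy5 alone. The differences in each channel are plotted further on for the 24 genes with the smallest p.

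The genes with the smallest p on the lower side included 3 that act in clathrin coats. Gga2 encodes an adaptor that sorts cargo from the Golgi into clathrin-coated carriers. Its probe lies at chr1:180817089-180818184 of rn4. The 6 control sons, in replicate order, had Gga2 log2 ratios of 0.29, 0.34, 0.092, 0.58, -0.041 and -0.0047. The 5 CR sons had -1.30, -0.14, -1.14, -0.38 and -0.66. Every CR son was below every control son, and CR sons 1 and 3 were lowest. The difference was -0.94 ± 0.18 (SE, n = 5 and 6, adjusted p 0.216 in limma), or -0.61 without CR sons 1 and 3. It was -1.07 in Cy5 alone and -0.08 in the pool, so the pool did not add to it.

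Fcho1, which starts clathrin-coated pits at the plasma membrane, was measured at chr16:18905593-18905838. The control sons had 0.29, 0.15, 0.16, 0.51, 0.24 and 0.53. The CR sons had -0.36, -0.23, -0.12, -0.23 and -0.099. The groups did not overlap and no single array stood out. The difference was -0.52 ± 0.11 (SE, adjusted p 0.278), and it was -0.50 without CR sons 1 and 3. A second Fcho1 probe of lower signal differed by 0.044, so the 2 probes disagreed.

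Hip1r, which ties clathrin to the actin skeleton, was measured at chr12:33716208-33716267. Control sons had Hip1r ratios of 0.36, 0.65, 0.42, 0.34, 0.12 and 0.34. CR sons had -0.45, 0.38, -0.32, -0.059 and -0.45. CR son 2 lay among the control sons and the other 4 below them. The difference was -0.55 ± 0.12 (SE, adjusted p 0.35).

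Close relatives of these 3 genes differed less. Gga1 and Gga3 were at -0.079 ± 0.098 and -0.09 ± 0.084 (SE). Fcho2 was at 0.013 ± 0.068, and Hip1 at 0.025 ± 0.095. Over the list of clathrin adaptors and endocytic proteins, 40 of 43 genes were measured and their median difference was -0.047, beside -0.0072 for all features. None of the 40 passed the adjusted test. At an unadjusted p under 0.05, 6 of the 40 were lower in CR sons and 1 was higher, beside 4.13% and 3.02% of all features, and Gga2 and Fcho1 were the 2 wholly below the control sons, beside 0.254%. The lower ones were Gga2, Fcho1 and Hip1r, the arrestin Arrb2 (-0.41) and the AP-1 subunits Ap1b1 (-0.26) and Ap1m1 (-0.25). The higher one was the uncoating cofactor Dnajc6 (0.13). This list, like the others, was written with earlier results of these data known. Gga2, Fcho1 and Hip1r are also leading genes, so the counts describe the list and carry no test.

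Fgd2 activates Cdc42 and is known from antigen-presenting cells. Its probe lies at chr20:7700998-7701057. Control sons had 0.27, 0.29, 0.31, 0.79, 0.0077 and 0.17. CR sons had -0.99, 0.22, -0.60, -0.44 and -0.60. CR son 2 fell within the control range and the other 4 were below it. The difference was -0.79 ± 0.16 (SE, adjusted p 0.278), and -0.58 without CR sons 1 and 3. It was -0.80 in Cy5 alone and 0.024 in the pool.

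Havcr1 encodes TIM-1, a receptor of lymphocytes for phosphatidylserine, and had the smallest p of all features. Its probe lies at chr10:31857202-31857261. Control sons had 0.33, 0.25, 0.074, 0.29, 0.33 and 0.22. CR sons had 0.028, -0.043, -0.19, -0.041 and -0.18. The groups did not overlap. The difference was small and even across arrays, -0.33 ± 0.061 (SE, adjusted p 0.216), and -0.34 without CR sons 1 and 3. In Cy5 alone it was -0.19 ± 0.08, and the pool itself was higher on the CR arrays by 0.14 ± 0.034 (SE), so the pool contributed to the ratio. Its family member Havcr2 was at 0.0089 ± 0.062.

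Grwd1, a ribosome assembly factor, had 0.15, 0.34, 0.29, 0.30, 0.13 and 0.35 in the control sons. The CR sons had -0.50, 0.16, -0.26, 0.0087 and -0.20. The CR sons overlapped the control range through replicate 2 alone. The difference was -0.42 ± 0.088 (SE, adjusted p 0.278), with 0.14 in the pool, and -0.27 without CR sons 1 and 3. Sox5, a transcription factor of the SoxD group, had 0.071, -0.28, 0.14, 0.46, 0.26 and 0.31 in the control sons. The CR sons had -0.64, -0.33, -0.49, -0.22 and -0.28. Control son 2 lay within the CR range and the other 5 control sons above it. The difference was -0.55 ± 0.12 (SE, adjusted p 0.316).

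The other 5 genes on the lower side had adjusted p from 0.350 to 0.644. In Anapc7 (a subunit of the anaphase-promoting complex, -0.47), Pom121 (a nuclear pore protein, -0.56) and tuba1c-ps1 (-0.50) CR sons 1 and 3 were far below the other arrays. Without those arrays the differences were -0.23, -0.22 and -0.21. The last is a tubulin pseudogene whose probe may also bind tubulin transcripts, and its pool value was higher on the CR arrays by 0.26. In Rasd2 (a small GTPase, -0.26) and Ahdc1 (an AT-hook DNA-binding protein, -0.30) the values without them were -0.26 and -0.35. The groups did not overlap for Anapc7, Pom121, Rasd2 and Ahdc1. Rasd2 was above background on 4 of 6 control and 2 of 5 CR arrays. It passed the filter through the group where it was high, so its difference is given as a description.

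**Figure D1:**
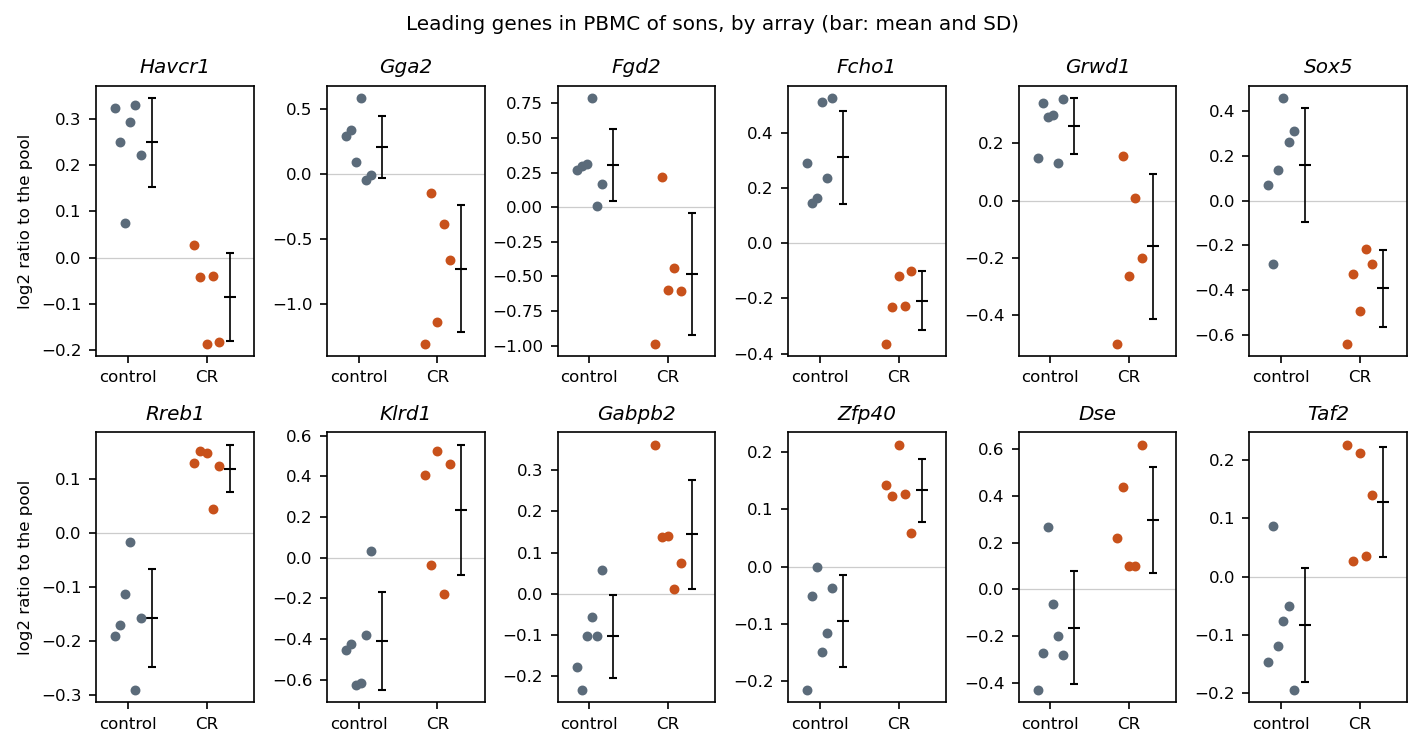
Log2 ratio to the pool (y axis) for the 6 genes with the smallest p on each side, in control sons (grey, 6 arrays) and CR sons (orange, 5 arrays), with the mean and SD as a black bar. Gga2, Havcr1 and Fcho1 show no overlap on the lower side and Rreb1 and Zfp40 none on the higher side, while CR son 2 lies among the control sons for Fgd2 and Grwd1.

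On the higher side, Rreb1 had the smallest p. It encodes a zinc finger factor that acts downstream of Ras, and its probe lies at chr17:33128521-33128580. Control sons had -0.19, -0.17, -0.11, -0.016, -0.29 and -0.16. CR sons had 0.13, 0.15, 0.15, 0.044 and 0.12. The groups were apart, and CR son 4 was the lowest of its group by a wide gap. The difference was 0.28 ± 0.053 (SE, adjusted p 0.216), 0.24 in Cy5 alone and -0.074 in the pool.

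Klrd1 encodes CD94, the partner chain of NKG2 receptors on NK cells, and was measured at chr4:166878917-166878976. Control sons had -0.45, -0.42, -0.63, -0.61, -0.38 and 0.034. CR sons had 0.41, -0.034, 0.53, -0.18 and 0.46. Control son 6 overlapped the CR range. The difference was 0.65 ± 0.15 (SE, adjusted p 0.508), 0.57 in Cy5 alone and -0.11 in the pool.

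Gabpb2, a subunit of the GA-binding transcription factor, had -0.18, -0.23, -0.10, -0.057, -0.10 and 0.057 in the control sons. In the CR sons the ratios were 0.36, 0.14, 0.14, 0.012 and 0.074. Control son 6 lay within the CR range. The difference was 0.25 ± 0.059 (SE, adjusted p 0.561), but 0.10 in Cy5 alone against -0.11 in the pool, so the 2 channels contributed about equally. Its probe was above background on 2 of 6 control and 4 of 5 CR arrays, and so passed the filter through the CR sons alone, which makes its difference a description. Zfp40, a zinc finger protein, had -0.22, -0.051, -0.00075, -0.15, -0.12 and -0.037 in the control sons and 0.14, 0.12, 0.21, 0.13 and 0.059 in the CR sons. These groups did not overlap, and the difference was 0.23 ± 0.057 (SE, adjusted p 0.561). The Zfp40 probe was not above background on every son's array.

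Dse, which converts glucuronic acid in dermatan sulfate, had -0.43, -0.27, 0.27, -0.06, -0.20 and -0.28 in the control sons. The ratios of the CR sons were 0.22, 0.43, 0.10, 0.10 and 0.62. Control son 3 lay inside the CR range. The difference was 0.46 ± 0.12 (SE, adjusted p 0.644), and a second, dimmer probe gave 0.16. With position as a term it was 0.93. Calhm6, a membrane protein of activated myeloid and lymphoid cells, is a neighbour of Dse: their probes start 22.8 kb apart on chromosome 20. Control sons had Calhm6 ratios of -0.24, -0.03, 0.60, -0.25, -0.047 and -0.21. CR sons had 0.66, 0.90, 0.59, 0.86 and 1.59. All control sons but replicate 3 lay below the CR sons, and replicate 3 was just above the lowest of them. The difference was 0.95 ± 0.27 (SE, adjusted p 0.644), 0.99 in Cy5 alone, and 1.14 without CR sons 1 and 3.

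Another 6 genes completed the higher side, with adjusted p of 0.644. Taf2, a subunit of the general transcription factor TFIID, was at 0.21 ± 0.058 (SE), and its second probe at 0.045. Tgfbrap1, a vesicle tethering factor, was at 0.19 ± 0.051, with -0.082 in the pool. Neither the Taf2 nor the Tgfbrap1 probe was above background on every son's array. Relt, a receptor of the tumour necrosis factor family, was at 0.32 ± 0.09, and at 0.20 without control sons 1, 2 and 5. Apbb1ip, which links Rap1 to integrin activation in leukocytes, was at 0.61 ± 0.17, and at 0.38 without CR sons 1 and 3. Adcy7, the adenylyl cyclase of blood cells, was at 0.42 ± 0.12, and at 0.18 without CR sons 1 and 3. Its second probe gave 0.067. Emp3, a membrane protein of the PMP22 family, was at 0.29 ± 0.08. Its probe starts 86.0 kb from that of Grwd1 on chromosome 1, and Grwd1 differed in the opposite direction (-0.42).

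The 24 leading genes were picked by the p of the ratio on these same arrays. That choice itself favours the same sign in Cy5 and within slides, and the opposite sign in the pool. All 24 had the same sign in Cy5 alone as in the ratio. In the pool, 7 of the 24 reached an unadjusted p under 0.05, each in the direction opposite to its ratio. Within slides, which 4 of the 6 slides allow because they held sons of both groups, the difference kept its sign on 4 of 4 slides for 21 of the 24 genes. The exceptions were Hip1r, Dse and Apbb1ip, each with 3 of 4. Within each of these 4 slides every control son was at position 4. With position as a term, the difference was -0.93 for Gga2, -0.41 for Fcho1, -0.85 for Fgd2, -0.43 for Havcr1, 0.29 for Rreb1 and 1.65 for Calhm6.

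**Figure D2:**
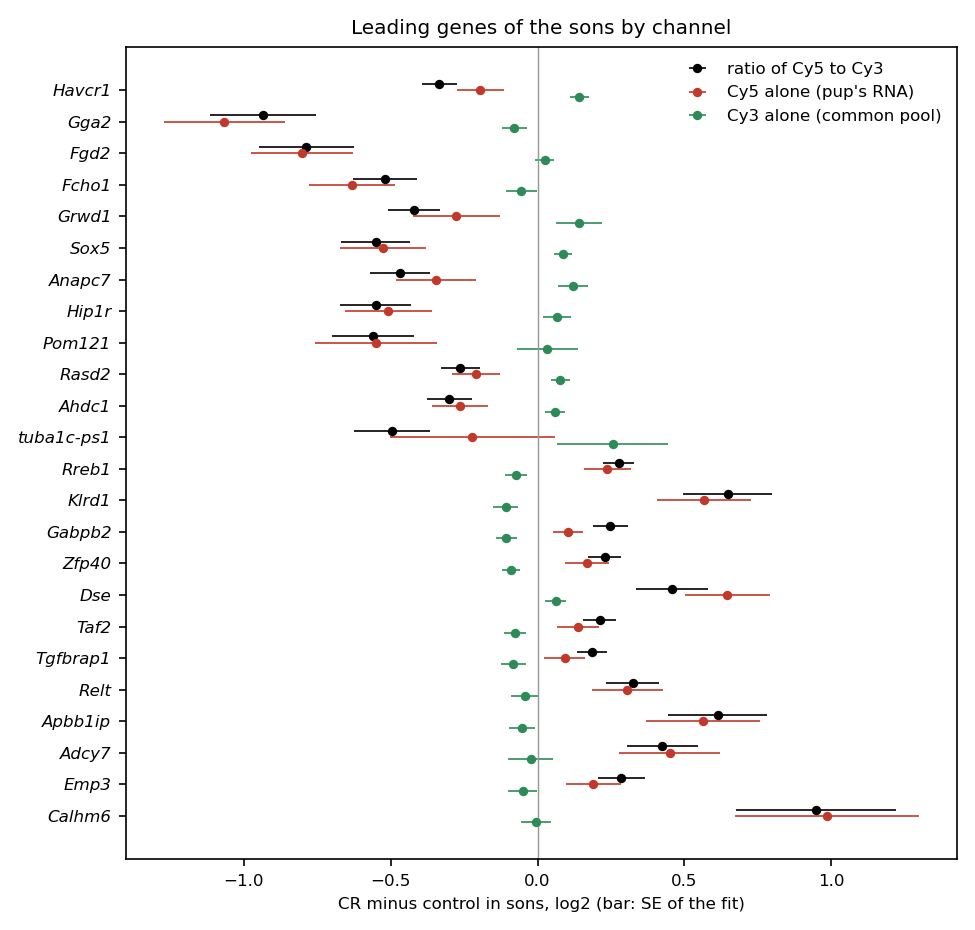
CR minus control in sons (x axis, log2, bar for the SE of the fit) for the 24 leading genes, for the ratio (black), for Cy5 alone, the son's RNA (red), and for Cy3 alone, the common pool (green). Calhm6 and Gga2 differ in Cy5 with the pool near 0, whereas Havcr1, Grwd1 and Gabpb2 hold pool differences of 0.14, 0.14 and -0.11.

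The daughters of the same dams' groups (6 CR, 6 control) served as a comparison. limma called 0 of 19679 features for the difference between the effect in sons and that in daughters (0%, smallest adjusted p 0.926), and 914 had an unadjusted p under 0.05 (4.64%). Since the leading genes were picked by their p in sons, the choice itself favours a smaller value in daughters, which 24 of 24 had. The sign in daughters was the same for 8 of the 12 genes on the lower side and for 5 of the 12 on the higher side. Fcho1 and Fgd2 were at -0.33 ± 0.10 and -0.42 ± 0.15 (SE) in daughters, and Hip1r at -0.25 ± 0.12. Rreb1 was at -0.089 ± 0.05 in daughters, and the sons' effect exceeded it by 0.36 ± 0.073 (SE, adjusted p 0.926), the smallest p of this comparison.

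Further genes had differences of opposite sign in the sexes. Anapc7 was at -0.47 in sons and 0.16 in daughters, and Emp3 at 0.29 and -0.14. Tmed9, a cargo receptor of early secretion, was at -0.31 in sons and 0.46 in daughters. Arhgef25 was at -0.29 and 0.14, and Bloc1s2, a subunit of lysosome-related organelle assembly, at -0.21 and 0.13. The phosphoinositide phosphatase Mtmr6 was at 0.21 and -0.19. Without CR sons 1 and 3 the sons' values were -0.079 for Tmed9, -0.19 for Arhgef25 and 0.045 for Mtmr6. As the mean of its probes Tmed9 was at -0.60 in sons. Without control sons 1, 2 and 5 Bloc1s2 was at -0.32, and with position as a term Bloc1s2 was at -0.051 and Mtmr6 at 0.041. Skic3, a subunit of the exosome-linked SKI complex, was at 0.15 and -0.16. Their adjusted p was 0.932 for the difference between sexes, apart from 0.926 for Rreb1.

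**Figure D3:**
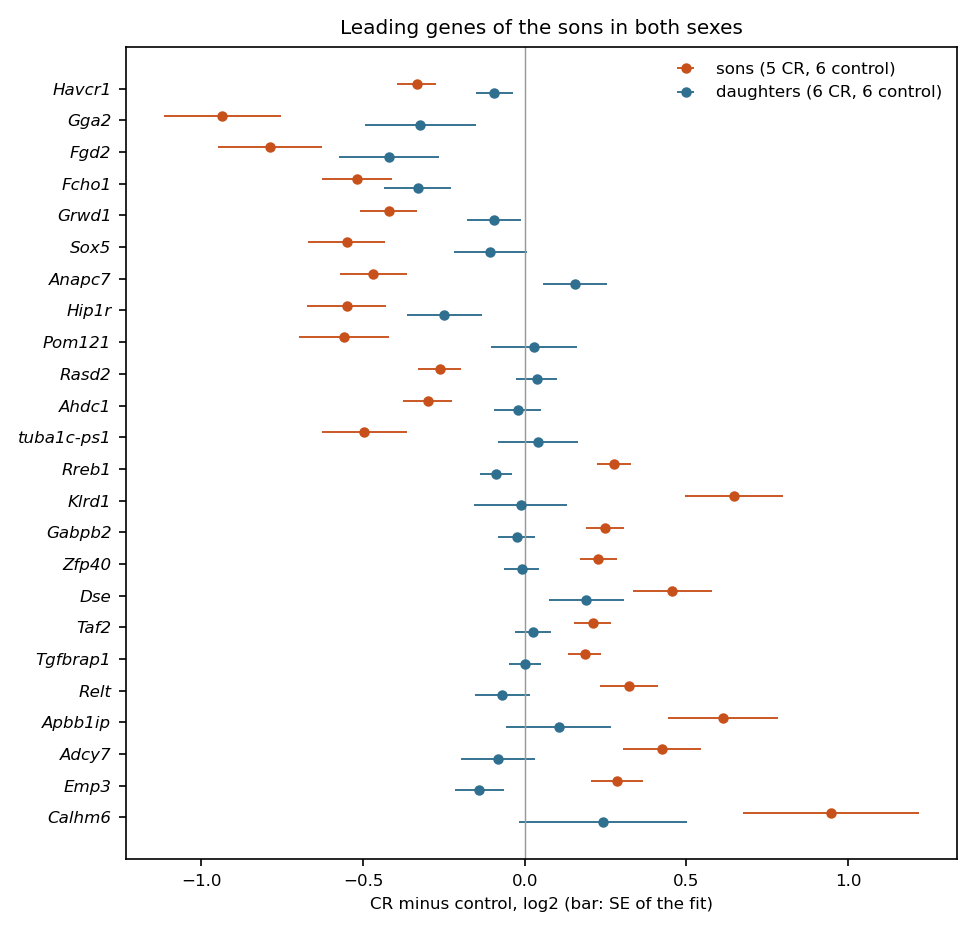
CR minus control (x axis, log2, bar for the SE of the fit) for the 24 leading genes of the sons, in sons (orange, 5 CR and 6 control) and daughters (blue, 6 CR and 6 control). Fcho1, Fgd2 and Gga2 lie below 0 in both sexes, and Anapc7 and Rreb1 lie on opposite sides of 0.

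B cell transcripts had differences below 0 throughout the list. Of 20 genes listed, 13 were measured. All 13 had a difference below 0 with a median of -0.34, beside -0.0072 for all features. At an unadjusted p under 0.05, 6 of 13 were lower and 0 higher, beside 4.13% and 3.02% of all features, and 0 passed the adjusted test. The list's mean per array was 0.041, 0.043, 0.10, 0.63, -0.098 and 0.30 in the control sons and -0.21, -0.12, 0.14, -0.25 and -0.56 in the CR sons. Control son 4 was highest and CR son 5 lowest. CR son 3 lay inside the control range and the other 4 CR sons below it. The median was -0.51 without CR sons 1 and 3, -0.52 without control sons 1, 2 and 5, -0.23 without control son 4, and -0.32 with position on the slide as a term. In bulk RNA, fewer B cells and less RNA per B cell cannot be told apart.

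Blk, a Src-family kinase of the B cell receptor, had 0.13, 0.14, 0.35, 0.77, 0.019 and 0.53 in the control sons. Among CR sons they were -0.48, 0.13, 0.072, -0.13 and -0.55. Control sons 1 and 5 lay inside the CR range. The difference was -0.52 ± 0.16 (SE, adjusted p 0.644). Cd72, an inhibitory coreceptor, was at -0.71 ± 0.22. Ms4a1, which encodes CD20, was at -0.50 ± 0.18, and the receptor chain Cd79b at -0.55 ± 0.23. Cd37, a tetraspanin, was at -0.21 ± 0.098, and the B lineage factor Ebf1 at -0.37 ± 0.25. Adjusted p lay between 0.644 and 0.787 for these 6 genes. Ebf1 was at -0.65 without CR sons 1 and 3, Cd79b at -0.87 and Ebf1 at -0.77 without control sons 1, 2 and 5, and Cd37 at 0.00095 and Ebf1 at -0.014 with position as a term. In daughters the B cell list's median was -0.23, with 10 of 13 members below 0. Ms4a1 was at -0.54 there, whereas Ebf1 was at 0.22.

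Signalling proteins downstream of the B cell receptor lay the same way. Of 26 listed, 25 were measured, 23 had a difference below 0, and the median was -0.21, beside -0.23 in daughters with 22 below 0. At an unadjusted p under 0.05, 9 were lower and 0 higher, against 4.13% and 3.02% over all features. Apart from members that the B cell list holds too, these included the kinases Syk (-0.55 ± 0.21, SE) and Btk (-0.36 ± 0.16), the phospholipase Plcg2 (-0.44 ± 0.15), the exchange factor Vav2 (-0.43) and the kinase Prkcb (-0.25). Syk had -0.041, 0.27, 0.21, 0.81, -0.18 and 0.44 in the control sons and -0.39, 0.034, -0.16, -0.49 and -0.46 in the CR sons. Its control sons 1 and 5 lay inside the CR range. Of the plasma cell list, 6 of 9 genes were measured, 3 lay below and 3 above 0, and the median was -0.015. Before adjustment 2 were lower and 0 higher at p under 0.05, beside 4.13% and 3.02% of all features. Mzb1, a chaperone of immunoglobulin assembly, was at -0.44 ± 0.18 and Sdc1 at -0.30 ± 0.14. Without control sons 1, 2 and 5 they were at -0.72 and -0.17, and Sdc1 was at -0.86 with position as a term. The members above 0 were Tnfrsf17 (0.15), Prdm1 (0.052) and Jchain (0.019).

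Class II genes and their processing factors lay on the same side. Of 12 listed, 11 were measured, 10 had a difference below 0 and the median was -0.39. Before adjustment, at p under 0.05, 5 were lower and 0 higher, beside 4.13% and 3.02% of all features. The list's mean per array was 0.32, 0.19, 0.089, 0.41, 0.21 and -0.41 in the control sons and -0.67, 0.35, -0.12, -0.26 and -0.80 in the CR sons. Control son 6 was low for its group and CR son 2 high. The means of control son 6 and CR sons 1 and 5 hold the very low RT1-Bb values of these arrays, given further on. The median was -0.35 without CR sons 1 and 3 and -0.30 without control sons 1, 2 and 5. The median in daughters was -0.34, with 11 of 11 members below 0.

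The promoters of the class II chains are shown because 10 of the 11 genes lay on one side and class II promoters are known for a shared regulatory element, the Y box, which binds the factor NF-Y. The windows span the RefSeq start site in GRCr8, most of each lying upstream, and are read on the gene's strand. Capitals mark matches to CTGATTGG on either strand.
RT1-Da, the DR alpha-like chain (chr20:4515165-4515464, plus strand): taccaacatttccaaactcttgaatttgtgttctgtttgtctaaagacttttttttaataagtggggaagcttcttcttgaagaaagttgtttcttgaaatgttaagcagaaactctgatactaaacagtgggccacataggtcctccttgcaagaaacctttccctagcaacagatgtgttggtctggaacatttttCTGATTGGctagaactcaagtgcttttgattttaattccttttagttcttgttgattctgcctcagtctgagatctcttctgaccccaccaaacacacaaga
RT1-Db1, a DR beta-like chain (chr20:4560113-4560412, minus strand): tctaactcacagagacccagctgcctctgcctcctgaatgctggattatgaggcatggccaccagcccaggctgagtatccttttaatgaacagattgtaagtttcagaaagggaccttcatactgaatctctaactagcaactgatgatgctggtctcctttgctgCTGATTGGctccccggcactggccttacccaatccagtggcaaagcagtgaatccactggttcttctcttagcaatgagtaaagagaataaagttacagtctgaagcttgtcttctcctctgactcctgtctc
RT1-Ba, the DQ alpha-like chain (chr20:4576807-4577106, plus strand): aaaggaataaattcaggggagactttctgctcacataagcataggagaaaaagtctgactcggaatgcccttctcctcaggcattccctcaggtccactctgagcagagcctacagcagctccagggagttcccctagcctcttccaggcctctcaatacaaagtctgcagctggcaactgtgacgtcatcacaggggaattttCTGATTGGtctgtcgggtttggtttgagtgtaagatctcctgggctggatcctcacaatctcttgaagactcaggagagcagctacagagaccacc
RT1-Bb, the DQ beta-like chain (chr20:4604069-4604368, minus strand): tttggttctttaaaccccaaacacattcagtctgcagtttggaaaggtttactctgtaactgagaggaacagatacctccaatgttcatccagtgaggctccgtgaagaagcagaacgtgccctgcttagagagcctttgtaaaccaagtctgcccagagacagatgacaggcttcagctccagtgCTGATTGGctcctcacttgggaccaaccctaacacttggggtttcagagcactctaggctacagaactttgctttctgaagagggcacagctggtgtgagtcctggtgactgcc
The matches start 52, 83, 46 and 64 bases before the start site, in this order. RT1-DOa also holds one, so 5 of the 10 measured class II genes with a promoter entry had the motif, beside 1172 of all 33469 promoters in the table. None of the 7 measured B cell, 18 B cell receptor signalling and 13 T cell genes with an entry did. Of 15 measured red cell genes with an entry, 2 did, Klf1 and Sptb. A match is a stretch of letters and not a measured binding site.

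RT1-Da was measured at chr20:4641104-4641163 of rn4. Control sons had 0.36, 0.22, 0.019, 0.50, 0.18 and 0.12. CR sons had -0.15, 0.054, -0.027, -0.42 and -0.32. Only CR son 2 and control son 3 crossed. The difference was -0.41 ± 0.15 (SE, adjusted p 0.653). RT1-Db1 was at -0.49 ± 0.17 and RT1-Ba at -0.23 ± 0.094. The CR sons had RT1-Ba ratios of -0.30, 0.20, -0.23, -0.033 and -0.26. No fit of RT1-Ba was run without CR sons 1 and 3.

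Cd74 was at 0.30, 0.26, 0.12, 0.80, 0.072 and 0.062 in the control sons. In the CR sons it was at -0.21, 0.29, 0.11, -0.59 and -0.79. CR sons 2 and 3 lay in the control range. The difference was -0.51 ± 0.22 (SE, adjusted p 0.681). The thiol reductase Ifi30 was at -0.39 ± 0.13, and the coactivator Ciita at -0.17 ± 0.098. Ctss, the protease that trims the invariant chain, was the one member above 0, at 0.062 ± 0.097.

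RT1-Bb had another distribution than the other class II chains. Its control sons had 1.42, 0.41, 0.93, 0.48, 1.33 and -4.48. Its CR sons had -4.49, 1.21, -0.24, -0.45 and -4.57. Control son 6 and CR sons 1 and 5 formed a low set near the bottom of the scale, and the remaining 8 arrays lay between -0.45 and 1.42. Its difference of -1.72 ± 1.21 (SE) goes with 2 of 5 CR and 1 of 6 control sons in the low set.

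T cell and NK transcripts lay the other way, with smaller medians, which turned to -0.34 and -0.059 with median centring. For T cells 19 of 20 genes were measured, 13 had a difference above 0, the median was 0.12, and 3 were higher and 0 lower at an unadjusted p under 0.05, beside 3.02% and 4.13% of all features. The list's mean per array was 0.088, 0.17, 0.071, -0.15, 0.14 and 0.057 in the control sons and 0.19, 0.21, 0.13, 0.16 and 0.20 in the CR sons, and control son 4, which had the highest B cell mean, was the lowest. Without that array the median was 0.044. Cd3d, a chain of the T cell receptor complex, was at 0.22 ± 0.07 (SE), of which 0.091 was seen in Cy5 alone. The T lineage factor Tcf7 was at 0.68 ± 0.26, and at 0.28 without CR sons 1 and 3. The cytokine receptor Il7r was at 0.44 ± 0.17, and at 0.21 without them. In daughters the list's median was -0.071.

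For NK and cytotoxic cells 19 of 23 genes were measured, 15 had a difference above 0 and the median was 0.12. It was 0.065 without CR son 1, 0.068 without control son 3, 0.064 without control son 4 and 0.015 with position as a term. In the other direction, it was 0.22 without control sons 1, 2 and 5 and 0.25 with the scanner's own ratio. Counted at an unadjusted p under 0.05, 3 were higher and 0 lower, beside 3.02% and 4.13% of all features: Klrd1, Klrb1a (0.43 ± 0.14, SE) and Klrk1 (0.44 ± 0.17). Klrk1 encodes NKG2D, an activating receptor. Its control sons had -0.078, -0.20, -0.20, -0.04, -0.32 and 0.20, and its CR sons had 0.26, 0.38, 0.34, 0.27 and 0.43. The groups did not overlap. The cytolytic genes Prf1 and Gzmm were at 0.023 ± 0.12 and 0.16 ± 0.14.

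The lectin-like receptors of the Klr family, looked at as a whole after these values were seen, had differences of both signs. All 12 measured Klr genes lie on chromosome 4 of rn4, 4 had a difference above 0 and 8 below, and the median was -0.093. With p under 0.05 before adjustment, 3 were higher and 4 lower, beside 3.02% and 4.13% of all features. The lower ones were Klre1 (-1.01 ± 0.27, SE), Klra22 (-0.63 ± 0.18), Klrc3 (-0.56 ± 0.18) and Klri2 (-0.28 ± 0.10). The Klre1 probe starts at position 166862168, between Klrb1c and Klrd1 at 166878917, with Klrk1 at 166915175. Klre1 had 0.53, 0.71, 0.088, -0.34, 0.16 and -1.04 in the control sons and -0.98, -1.12, -1.14, -0.52 and -1.18 in the CR sons. Control son 6 lay in the CR range and the other 5 control sons above it. Control sons 1, 2 and 5 held the highest Klre1 values, and Klre1 was not refitted without them. In daughters Klre1 was at 0.043, and Klrd1 at -0.012. The receptors are near-identical copies in places, and their probes may bind more than 1 of them.

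**Figure D4:**
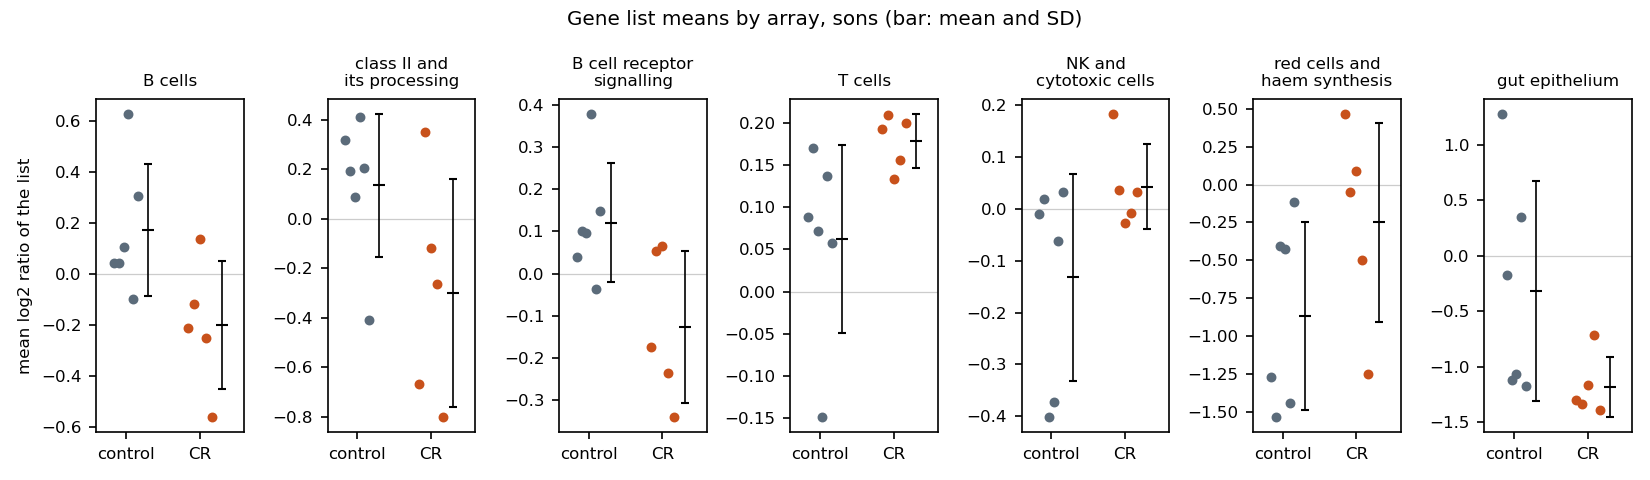
Mean log2 ratio of the measured members (y axis) for 7 gene lists in each control son (grey, 6 arrays) and CR son (orange, 5 arrays), with the mean and SD over arrays as a black bar. The groups overlap for each list, B cell and class II means lie lower in most CR sons, with RT1-Bb lowering the class II means of control son 6 and CR sons 1 and 5, and 3 of the 6 control sons lie above the CR sons for gut epithelium.

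Markers of cells that a density gradient should remove were measured as well. For red cells and haem synthesis 22 of 30 genes were measured, 20 had a difference above 0, and the median was 0.66. With a wide spread between arrays, 1 of 22 was higher and 0 lower at an unadjusted p under 0.05, beside 3.02% and 4.13% of all features. The list's mean per array was -1.27, -1.54, -0.40, -0.43, -1.45 and -0.11 in the control sons and 0.47, -0.047, 0.089, -0.49 and -1.25 in the CR sons. CR son 1 was highest, control sons 1, 2 and 5 and CR son 5 were lowest, and the groups overlapped. The median was 0.22 with slide as a block, 0.41 without CR son 1, 0.24 without CR sons 1 and 3 and 0.049 without control sons 1, 2 and 5. Alas2, the first enzyme of haem synthesis in red cells, was at 1.01 ± 0.61 (SE), the carbonic anhydrase Car2 at 1.06 ± 0.66 and the membrane anchor Ank1 at 0.31 ± 0.15. Alas2, Car2 and Ank1 were at 0.44, 0.51 and 0.12 without CR sons 1 and 3, and at 0.25, 0.17 and 0.20 without control sons 1, 2 and 5. Hbb, the beta globin, was at 1.09 ± 0.84 over 9 arrays, since its spots were left out as outliers on control son 3 and CR son 1, and at -0.069 without control sons 1, 2 and 5. In daughters the list's median was -0.28. Neutrophil genes had a median of 0.18, with 11 of 13 above 0 and 3 higher at an unadjusted p under 0.05 (3.02% of all features). That median was 0.037 without control sons 1, 2 and 5, 0.10 without CR son 2 and 0.37 with position as a term. S100a9 was at 0.70 ± 0.31, the stefin Stfa2 at 0.57 ± 0.25 and Padi4 at 0.21 ± 0.084. Without control sons 1, 2 and 5 these were 0.29, 0.26 and 0.11, and S100a9 was at 1.62 with position as a term. Platelet genes had a median of -0.11, with 4 of 13 above 0. The platelet median was 0.37 without control sons 1, 2 and 5, -0.52 without CR sons 1 and 3 and -1.02 with position as a term. With 1 array left out it ranged from -0.29 (CR son 3) to 0.19 (control son 2). It was also above 0 without control son 1 (0.053) and without CR son 2 (0.13).

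Transcripts of gut epithelium, which PBMC should not contain, were present on some arrays. Of 19 listed genes 13 passed the filter. Fabp6, the ileal bile acid carrier, had 2.47, 0.028, -2.59, -2.59, 1.73 and -2.85 in the control sons and -2.37, -2.78, -2.52, -1.76 and -3.13 in the CR sons. Reg3b, an antibacterial lectin of Paneth cells and enterocytes, had 2.34, 0.18, -2.91, -2.57, 0.70 and -3.23 in the control sons and -2.84, -3.47, -3.22, -2.03 and -3.35 in the CR sons. For both, control sons 1, 2 and 5 were high and all other sons were low. The list's median difference was -0.81 with all arrays, -0.47 without control son 1 and 0.0074 without control sons 1, 2 and 5. The same 3 arrays had the lowest red cell means of the control sons. Whether this tissue signal took part in other differences was not tested beyond repeating the list medians and the values of 88 genes without these arrays. The 24 leading genes kept their signs, which their choice by p over all sons favours. Gga2 was at -0.95, Fcho1 at -0.61, Havcr1 at -0.28, Rreb1 at 0.22 and Klrd1 at 0.64.

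A set of transcripts separated CR sons 1 and 3 from everyone else. Of 19679 features, 66 lay on these 2 arrays at least 0.5 log2 units below all other 9 sons' arrays and 50 lay as far above. Limd2, an adaptor of lymphocytes, stood at -2.24 and -2.51, against 0.093 to 0.57 on the other 9. Cdk16, a cyclin-dependent kinase, stood at -2.22 and -2.20, against -0.13 to 0.36. Csrp1, a LIM protein of the cytoskeleton, stood at -2.36 and -1.96, against -0.30 to 0.41. The proteasome subunit Psmd3 and the arginine methyltransferase Prmt1 belonged to the same set. Psmd3 was at -1.82 and -1.81, and Prmt1 at -1.86 and -1.77. On the high side, Rab15 stood at 2.25 and 1.48 and the splicing factor Hnrnpul1 at 1.68 and 0.98. These genes were chosen for that separation, so the values describe it and carry no test. CR daughter 5 had an extreme second component too, yet lay at least 0.5 log2 units beyond the 9 sons for 1 of the 66 and 5 of the 50 features. The group difference of Psmd3 was -0.87 ± 0.28 (SE) and that of Prmt1 -0.79 ± 0.30, against -0.12 and -0.035 without the 2 arrays.

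Genes of lipid metabolism, which the title of the series names, differed little as lists. For fatty acid synthesis and desaturation 21 of 30 genes were measured, 15 were below 0 and the median was -0.077. Before adjustment, at p under 0.05, 2 were lower and 0 higher, beside 4.13% and 3.02% of all features. The 2 make up 9.52% of the list, and the count carries no test. The lower ones were Fads3 (-0.24 ± 0.074, SE) and the desaturase Scd2 (-0.33 ± 0.12). Scd2 was at -0.093 in Cy5 alone, with 0.23 in the pool. It was -0.14 without CR sons 1 and 3, -0.0037 with position as a term and -0.07 as the mean of its probes. Fads3 was at -0.39 without control sons 1, 2 and 5. The synthase Fasn was at -0.084 ± 0.075 and its regulator Srebf1 at -0.14 ± 0.094, or -0.14 and -0.0058 without CR sons 1 and 3.

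Cholesterol synthesis and uptake had a median of -0.049 over 26 genes. The isomerase Idi1, at -0.18 ± 0.084, was the 1 lower at an unadjusted p under 0.05, and 0 were higher. That is 3.85% of the list, beside 4.13% lower and 3.02% higher of all features. Idi1 was at -0.11 without CR son 2. For fatty acid oxidation 28 of 34 genes were measured and the median was 0.014. Cpt1a, the gate of fatty acids into mitochondria, had 0.081, -0.33, 0.19, -0.13, 0.02 and 0.30 in the control sons. In the CR sons the ratios were 0.23, 0.76, 0.25, 0.31 and 0.39. CR son 2 was highest and control son 6 lay inside the CR range. The difference was 0.37 ± 0.12 (SE, adjusted p 0.644), and 0.47 without CR sons 1 and 3. The acyl-CoA dehydrogenase Acadl was at -0.18 ± 0.066.

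For lipid transport, lipoproteins and sterol receptors 32 of 41 genes were measured, with a median of -0.05, with 4 lower and 2 higher at an unadjusted p under 0.05, beside 4.13% and 3.02% of all features. Of the 3 retinoid X receptors, partners of many nuclear receptors, Rxrb was at -0.34 ± 0.11 (SE), Rxra at -0.20 ± 0.068 and Rxrg at 0.20 ± 0.076. Apoa1, an apolipoprotein of liver and intestine, was at -0.63 and the sterol exporter Abcg1 at -0.18. Rxrg was above background on 2 of 6 control and 5 of 5 CR arrays. It passed the filter only through the group where it was high, so its value is a description. Rxrb and Rxra were at -0.15 and -0.091 without CR sons 1 and 3, and Rxrb at -0.17 with position as a term. Cd36, a fatty acid receptor that platelets and red cell precursors also carry, lay between -1.03 and -0.38 in the control sons. Its CR values were 1.58, 0.28, 0.41, -0.17 and -0.98. CR son 5 lay with the control sons and CR son 1 far above. The difference was 0.96 ± 0.41 (SE, adjusted p 0.67), and 0.45 without CR sons 1 and 3, the arrays with the highest red cell means. Lrp1 was at 0.052 ± 0.13, the lipase Lipe at 0.081 ± 0.064, the cholesterol carrier Star at -0.016 ± 0.057 and the mitochondrial carrier Ucp2 at 0.13 ± 0.24. Each of the 4 differences was within the spread between sons.

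Monocyte genes had a median of 0.13 in sons and -0.15 in daughters. In sons 16 of 18 were above 0 and 0 had an unadjusted p under 0.05, beside 4.13% lower and 3.02% higher of all features. Median centring turned the sons' median to -0.16, and it was 0.053 without CR son 2. It was 0.23 without CR sons 1 and 3 and 0.073 without control sons 1, 2 and 5. Cell cycle genes had a median of -0.081 over 56 genes in sons and 0.12 in daughters. In sons it was 0.042 with position on the slide as a term, -0.02 without control son 6 and -0.19 without control sons 1, 2 and 5.

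Of 39 interferon response genes 24 lay below and 15 above 0, with a median of -0.019. Before adjustment, at p under 0.05, 3 were lower and 1 higher, beside 4.13% and 3.02% of all features. Together they make up 10.3% of the list, and the count carries no test. The higher one was the RNA sensor Ifih1 (0.12), and the member farthest above 0 was Rsad2 (1.26 ± 0.70, SE). Bst2, which tethers virions, was at -0.61 ± 0.20 (SE) and the E3 ligase Trim25 at -0.41 ± 0.17, or -0.39 and -0.062 without CR sons 1 and 3. The peptide transporter Tap2 was at -0.71 ± 0.29, and at -0.19 without control sons 1, 2 and 5. Of 27 Toll-like receptor and NF-kB genes, Nfkb2 was at -0.41 ± 0.15 and Tab2 at 0.25 ± 0.088, or 0.16 without CR sons 1 and 3. As the mean of its probes Nfkb2 was at -0.18.

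Of 42 genes of DNA methylation and histone modification 21 lay below and 21 above 0, with a median of -0.0063. At an unadjusted p under 0.05, 4 were lower and 0 higher, beside 4.13% and 3.02% of all features. The 4 make up 9.52% of the list, and the count carries no test. The histone H3 methyltransferase Dot1l had 0.12, 0.30, 0.15, 0.088, 0.15 and 0.27 in the control sons and -0.048, -0.048, 0.053, 0.045 and -0.096 in the CR sons. The groups did not overlap, and the difference was -0.20 ± 0.055 (SE, adjusted p 0.644). Mbd3, a subunit of the NuRD complex, was at -0.36 ± 0.11, and at -0.14 without CR sons 1 and 3. Cytosolic ribosomal proteins had a median of 0.059 with 63 of 83 above 0, but -0.49 with median centring, -0.012 with the scanner's own ratio, -0.031 in Cy5 alone and -0.027 in the deposited table, so their direction depended on the processing.

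Nutrient sensing showed single genes. Foxo1, a target of insulin signalling, was at -0.28 ± 0.12, or -0.17 without CR sons 1 and 3, and Eif2ak4, the kinase GCN2 that senses amino acid shortage, at -0.27 ± 0.093 (SE). The translation factor Eif5a was at -0.38 ± 0.14, and at -0.068 without CR sons 1 and 3. Of 45 lysosomal genes, the proton pump subunit Atp6v1b2 was at -0.43 ± 0.14 and the cathepsin Ctsz at -0.42 ± 0.15. Atp6v1b2 was at -0.15 without CR sons 1 and 3 and at -0.25 as the mean of its probes. Ctsz was at -0.16 with position as a term. Mcm5, a DNA replication helicase subunit, was at -0.17 ± 0.073. Glycolysis, lipolysis and lipid droplets, phospholipid synthesis, the respiratory chain, and the circadian clock had 0 members at an unadjusted p under 0.05, of 26, 17, 26, 61 and 15 measured, and 0 members at an adjusted p under 0.05. Over all features 4.13% were lower and 3.02% higher at an unadjusted p under 0.05.

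**Figure D5:**
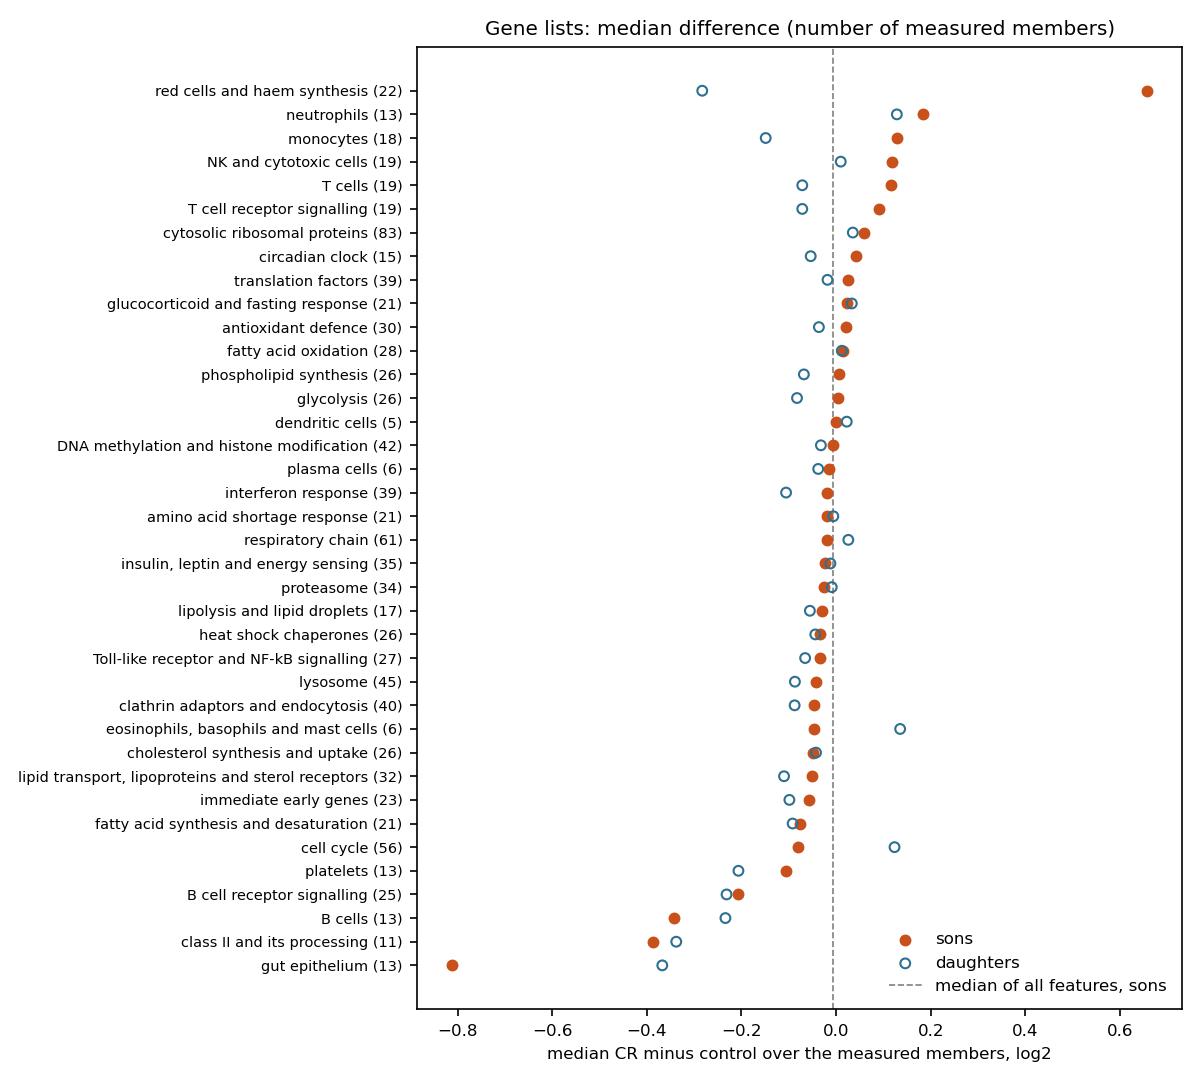
Median CR minus control difference (x axis, log2) over the measured members of 38 gene lists, with the number of members in brackets, in sons (filled) and daughters (open); the dashed line is the median of all features in sons. Gut epithelium, class II, B cell and B cell receptor lists lie lowest in sons and red cell genes highest, and the red cell list lies below 0 in daughters.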

How the data were processed

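RNA of blood mononuclear cells from 23 pups was hybridised to 2-colour Agilent arrays without dye swap, 1 pup in Cy5 and a pool of all samples in Cy3, per the labels' protocols. Per the file headers, the authors scanned and extracted the arrays with Agilent Feature Extraction 10.5.1.1. The deposited scanner files give the spot intensity and local background of each channel as unnormalized intensity, and the software's own log10 ratio (Cy5 to Cy3, background-subtracted and dye-normalized). A separate deposited table of values is on the log2 scale, and its normalization is not given in the sources used here. Its columns correlated with the scanner values at r from 0.977 to 0.998, and it served as an alternative.

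From the intensities, limma 3.58.1 in R 4.3.3 corrected the background (normexp, offset 50), normalized within arrays by loess with control spots at weight 0, and averaged the spots of a probe. Outlier spots were left out. Of 41012 probes, 23123 were well above background in Cy5 on at least 50% of the sons' arrays of either group, and the brightest probe per gene name gave 19679 features. Symbols were updated through RefSeq tables for 11140 probes by accession, 6188 by symbol or gene ID and 3424 by synonym, and 20260 kept the name of the array design.

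All 23 arrays entered 1 limma fit of 4 group means, with Benjamini-Hochberg adjustment over all features. Degrees of freedom come from pups. Litters are not identified in the labels, and p-values measure the spread between these pups only. The genes named were the 12 with the smallest p in each direction, the 4 in each direction for the difference between sexes, the 3 of smallest p and the 3 brightest markers of each list, and 9 genes of lipid metabolism taken in any case. Others are said to be chosen after their values were seen, or were read from a list for a count. Members and lists were chosen with earlier results of these data known. The script was tested on simulated data. Same-numbered pups did not deviate together throughout (r from 0.023 to 0.20 over 5 pairs), so replicate numbers were not taken as pairs. One listed gene is not reported here. Promoter sequences came from RefSeq's GRCr8 table. Precision is limited by the number of arrays.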

Additional observations from a re-analysis of the deposited data

Results flagged for a closer look

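Among 176 groups of single-gene values and 76 groups of list means, 12 held 1 array far from the others of its group by Dixon's criterion at 95%, which chance alone meets in about 1 of 20 groups. For single genes, Rreb1 was low in CR son 4 (0.044) and Calhm6 high in control son 3 (0.60). Cd74 was high in control son 4 (0.80), and Fasn was high in CR son 3 (0.12). In CR son 2, Lrp1 was high (0.56) and Idi1 low (-0.66).

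For list means, control son 4 was low for T cells (-0.15) and high for monocytes (0.20) and dendritic cells (0.17). CR son 2 was high for clathrin adaptors and endocytosis (0.12) and for phospholipid synthesis (0.20). Control son 5 was low for DNA methylation and histone modification (0.022).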

How the results depend on the processing

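Over 27 alternative settings (13 planned in processing, 11 with 1 array left out, and 3 chosen after seeing the data), 79 of the 88 genes followed across all settings kept their sign. None of these 88 passed the adjusted threshold except the 4 given above without CR son 2, and the 6 features called with position as a term are other genes. With each pup left out in turn, the features called ranged from 0 to 4, those at an unadjusted p under 0.05 from 770 to 2126, and those without overlap from 105 to 342, where fewer arrays make a lack of overlap easier. With the replicate block the fit called 0 features, with 931 lower and 658 higher at an unadjusted p under 0.05 and a smallest adjusted p of 0.194, and the block changed no other call.

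Median centring gave 6357 features at an unadjusted p under 0.05, 330 without overlap and 2397 for the difference between sexes, and medians of -0.80 for B cells, -0.87 for class II and -0.64 for B cell receptor signalling. It turned Emp3 to -0.23, Ucp2 to -0.37, Lrp1 to -0.11 and Cd3d to -0.32. Without a filter on dim probes the same 3 counts were 2725, 183 and 1747, over more features. Features without overlap numbered 138 without background correction and 122 in the deposited table. The gut median was -2.98 with the scanner's ratio. The cause of these shifts was not tested.

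With position on the slide as a term, 6 features were called in sons and 1 for the difference between sexes, 789 had an unadjusted p under 0.05, the gut median was -2.85 and Cd37 was at 0.00095. Without CR sons 1 and 3, 823 of 19679 features had an unadjusted p under 0.05 and 323 did not overlap. Without control sons 1, 2 and 5, 820 of 19679 did not overlap and the gut median was 0.0074. Without these arrays Star (0.011), Ucp2 (-0.030), Lrp1 (-0.0049), Hbb (-0.069) and Fabp6 (0.16) changed sign. Fewer arrays make a lack of overlap easier here too, so 323 and 820 cannot be set against the count with all arrays. Star was at 0.016 with slide as a block and 0.011 without background correction. Lrp1 was at -0.043 in Cy5 alone, and -0.058 as the mean of its probes, and from -0.071 (without CR son 2) to 0.11 with 1 array left out, and Lipe was at -0.061 in Cy5 alone.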
